A study of Mus musculus with 4 samples.

Results

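Atf4 and 9 further genes of the integrated stress response were followed across 4 libraries of cultured mouse neural stem cells. They were chosen by name from a table of transcript levels and were Atf4, Ddit3, Trib3, Chac1, Asns, Atf5, Sesn2, Atf3, Ppp1r15a and Cebpb, 10 genes among the 55487 gene IDs listed. The control cells carried a floxed Tut1 gene (Tut1f/f) and received empty lipid nanoparticles (LNP). The remaining groups received LNP with mRNA for Cre recombinase (Cre-LNP) for 3 days. They were Tut1f/f cells (Tut1 KO), p53f/f cells (Trp53 KO) and Tut1f/f;p53f/f cells (double KO). Each group was 1 library, so no spread between cultures could be set against any difference, and no test was run. Empty LNP was given to the control alone, so in every comparison with the control the Cre mRNA and the deletion cannot be told apart. The cells were primary cultures from embryonic neocortex, and whether cultures of several embryos were pooled was not given in the sources used here.

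In the integrated stress response, kinases that sense amino acid shortage, unfolded protein, haem lack or double-stranded RNA phosphorylate the initiation factor eIF2. Most protein synthesis then slows, while mRNAs with short reading frames upstream of their coding sequence, Atf4 foremost, are translated more. The ATF4 protein is a transcription factor that raises genes for amino acid supply, redox balance and, under lasting stress, cell death. Since ATF4 is set largely at translation, its transcript level does not report the amount of its protein.

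Levels are given in TPM, the share of all transcripts corrected for transcript length. Differences are of log2(TPM + 1), a scale that understates changes of low genes. Trp53, the gene for p53, had 120 TPM in control cells, 100 TPM in the library labelled Tut1 KO, 39.7 TPM in Trp53 KO cells and 41.9 TPM in double KO cells. Tut1 had 12.2, 29.8, 12.5 and 13.7 TPM in the same order and was therefore not lower in either library labelled as lacking it. Deletion of Tut1 removes a single exon, which a gene-level value need not show, so directions for Tut1 below rest on the labels. The 4 Y-linked genes had 5.54 to 62.0 TPM in the control and 6.81 to 34.9 TPM in the double KO and were at 0 in the other libraries, whereas Xist had 188 and 204 TPM in the libraries without Y-linked transcripts against 0.01 TPM in the others. The Xist and Y-linked pattern thus changed together with the label in each comparison except double KO minus control. All 11 neural stem cell markers had at least 1 TPM in every library, with a sum of 10723 to 12616 TPM. The summed level was 167 to 241 TPM for 9 neuronal markers, with Neurod6 at 0 throughout, 245 to 278 TPM for 5 astrocyte markers and 1512 to 1698 TPM for 7 markers of the oligodendrocyte lineage. Most of these sums came from Map2, from Aldoc and Aldh1l1, and from Olig1 and Olig2, respectively. At least 1 TPM was reached by 6 of the neuronal, 3 of the astrocyte and 5 or 6 of the oligodendrocyte markers in each library. Gfap, Aqp4 and Mog stayed below 1 TPM throughout. Markers of microglia, endothelium and mesenchyme summed to at most 1.17 TPM in any library.

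Promoter sequences are shown first for the members that held a motif of the ATF family, because these motifs are the binding sequences through which the response is known to act on its targets. The C/EBP-ATF response element (TGATGNAA, either strand) lay within 250 bases before to 50 bases after the annotated start of Atf3, Chac1, Trib3 and Asns, 4 of the 10 members. It was in 3.97% of all 32851 promoter windows. The cAMP response element (TGACGTCA) lay in the window of Ppp1r15a and in 1.79% of all windows. The sequences are from RefSeq (GRCm38.p6), run 5′ to 3′ on the strand of the gene, and carry the motif in capitals. In Atf3, Chac1 and Trib3 the element ran against the gene, so its reverse complement is capitalised. No match overlapped another. A match is a run of letters and does not show that a factor bound there.
Asns, chr6:7693210-7693282, minus strand: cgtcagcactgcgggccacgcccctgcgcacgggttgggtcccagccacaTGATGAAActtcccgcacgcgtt
Chac1, chr2:119350999-119351106, plus strand: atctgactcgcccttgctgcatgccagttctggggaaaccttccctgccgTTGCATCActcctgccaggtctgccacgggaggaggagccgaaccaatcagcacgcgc
Atf3, chr1:191183386-191183493, minus strand: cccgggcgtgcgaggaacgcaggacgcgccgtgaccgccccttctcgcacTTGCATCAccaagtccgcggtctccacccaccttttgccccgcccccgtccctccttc
Trib3, chr2:152344029-152344056, minus strand: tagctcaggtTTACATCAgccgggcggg
Ppp1r15a, chr7:45526269-45526330, minus strand: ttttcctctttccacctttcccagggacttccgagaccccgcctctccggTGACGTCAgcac
The element began 23 bases before the start in Asns, 110 bases before it in Atf3, 193 bases before it in Chac1 and 14 bases after it in Trib3.

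Atf4 transcripts were most abundant in the double KO. Atf4 (ENSMUSG00000042406) lies on the plus strand of chromosome 15 of GRCm38, from 80255184 to 80257541. Its level was 131 TPM in control cells, 131 TPM in the library labelled Tut1 KO, 133 TPM in Trp53 KO cells and 230 TPM in double KO cells. The first 3 libraries thus lay close together and the double KO stood 1.75-fold above the lowest. Double KO minus Trp53 KO was 0.78, and 182 of the 8976 genes compared had a larger difference. Double KO minus Tut1 KO was 0.81, whereas Trp53 KO minus control was 0.02 and Tut1 KO minus control was 0.00. Its annotated 5′ leader of 594 nucleotides holds 3 upstream ATG codons, the feature through which its translation is known to be controlled. Across the members, 7 of 10 had an upstream ATG, against 50.3% of 8465 protein-coding genes with at least 10 TPM in some library.

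The other transcription factors among the members, Atf5, Ddit3, Cebpb and Atf3, were highest in the Trp53 KO and not in the double KO. Atf5, a relative of Atf4 with a leader of the same kind, had 50.5 TPM in control cells, 43.8 TPM in the library labelled Tut1 KO, 71.7 TPM in Trp53 KO cells and 60.8 TPM in double KO cells. It was higher in both libraries without Trp53 than in both with it, by 0.50 for Trp53 KO minus control and 0.47 for double KO minus Tut1 KO. Ddit3, which encodes the pro-apoptotic partner CHOP, had 31.8 TPM in control cells, 41.6 TPM in the library labelled Tut1 KO, 44.4 TPM in Trp53 KO cells and 40.5 TPM in double KO cells. Ddit3 was thus lowest in the control and close to level in the 3 libraries that received Cre-LNP. Another ID with the symbol Ddit3, a short overlapping model, had at most 0.009 TPM and was not used.

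Cebpb and Atf3 were the lowest of the group. Cebpb, a stress-responsive C/EBP factor, had 2.45 TPM in control cells, 4.34 TPM in the library labelled Tut1 KO, 5.60 TPM in Trp53 KO cells and 5.49 TPM in double KO cells. The control again lay lowest, and Trp53 KO minus control was 0.93 for Cebpb, the largest value of any member in that comparison. With another pseudocount this value ran from 0.51 to 1.16. At 0.51, with a pseudocount of 5, Cebpb was no longer the largest, since Chac1 was at 0.53. Atf3, an early stress-induced repressor, had 2.30, 2.58, 3.35 and 2.85 TPM in the order control, library labelled Tut1 KO, Trp53 KO and double KO. Both libraries without Trp53 were higher for Atf3, by 0.40 and 0.11, values that ran from 0.19 to 0.52 and from 0.02 to 0.14 under other pseudocounts and scalings.

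**Figure D1:**
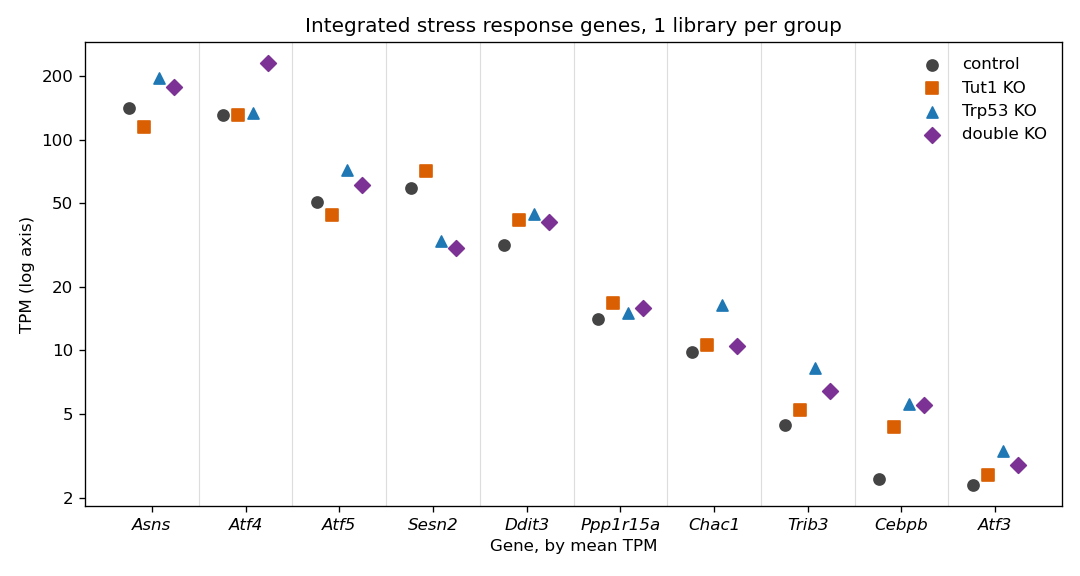
Level of each of the 10 members in each of the 4 libraries, in TPM on a log axis; a point is 1 library and there are no replicates or error bars. Atf4 stands at 230 TPM in the double KO and at 131 to 133 TPM elsewhere, while Sesn2 is lower in both libraries without Trp53.

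Among the members, the targets Asns, Chac1 and Trib3 were highest in the Trp53 KO library rather than in the double KO. Asns, asparagine synthetase, had 141 TPM in control cells, 115 TPM in the library labelled Tut1 KO, 197 TPM in Trp53 KO cells and 179 TPM in double KO cells. Both libraries without Trp53 were above both with it, by 0.48 and 0.64, and 499 of 9055 and 450 of 8950 genes had larger differences. Asns (chromosome 6, 7675169 to 7693254, minus strand) and Atf4 took the first place among the members in every library, Asns in the control and Trp53 KO and Atf4 in the others. Chac1, which degrades glutathione, had 9.82 TPM in control cells, 10.6 TPM in the library labelled Tut1 KO, 16.5 TPM in Trp53 KO cells and 10.5 TPM in double KO cells. The Trp53 KO library alone stood out for Chac1, at 0.69 above the control, and the double KO was lower than the Trp53 KO by a difference of -0.61. In that last comparison Atf4 and Chac1, one of its targets, therefore lay at opposite ends of the members. Trib3, a pseudokinase that restrains Atf4 and Ddit3, had 4.44, 5.21, 8.24 and 6.45 TPM in the order control, library labelled Tut1 KO, Trp53 KO and double KO. Trib3 was higher without Trp53 in both comparisons, by 0.77 and 0.26, values that ran from 0.49 to 0.88 and from 0.17 to 0.36 over the alternative settings.

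Sesn2 was the exception in direction. Sesn2 (chromosome 4, 132492032 to 132510501, minus strand), which encodes a leucine sensor that restrains mTORC1 and is a target of p53 as well as of ATF4, had 59.1 TPM in control cells, 71.1 TPM in the library labelled Tut1 KO, 33.0 TPM in Trp53 KO cells and 30.7 TPM in double KO cells. It was lower in both libraries without Trp53, with differences of -0.82 and -1.19. The latter was past 1, and 116 of 8950 genes had a more negative value. Its relatives Sesn1 (16.4, 19.3, 16.6 and 21.4 TPM) and Sesn3 (17.99, 16.6, 15.8 and 17.7 TPM) showed no such split by the Trp53 label. Sesn1 is also in the list of p53 targets used below.

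Ppp1r15a, the feedback gene whose product GADD34 directs a phosphatase to eIF2, varied least. It had 14.1 TPM in control cells, 16.8 TPM in the library labelled Tut1 KO, 15.1 TPM in Trp53 KO cells and 15.9 TPM in double KO cells, a 1.19-fold range. Ppp1r15a was higher in both libraries labelled as lacking Tut1 than in both others, by 0.23 and 0.07, a split shown by 15.3% of all genes. Its 5′ leader of 764 nucleotides holds 7 upstream ATG codons, the most of any member.

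Exons of Ddit3, Atf5, Ppp1r15a and Cebpb overlap exons of a gene on the opposite strand, and the use of strand in counting was not stated. Reads of these pairs cannot be told apart if strand was ignored. The partner of Atf5, Nup62, had 49.9 TPM in control cells, 10.6 TPM in the library labelled Tut1 KO, 56.6 TPM in Trp53 KO cells and 57.7 TPM in double KO cells, so it too was lowest where Atf5 was lowest. Mars1 opposite Ddit3 had 84.9 to 101 TPM, Tmem189 opposite Cebpb had 22.7 to 27.9 TPM and Tulp2 opposite Ppp1r15a had at most 0.201 TPM.

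In Trp53 KO minus control, 9 of 10 members had a difference above 0, with a median of 0.48, whereas 40.1% of the 9055 genes compared were above 0 and their median was -0.05. With transcript GC content and length taken out, 9 of 10 members were above 0 there, against 49.2% of genes. In double KO minus Tut1 KO, 6 of 10 members were above 0 with a median of 0.18, and 60.3% of 8950 genes were above 0 with a median of 0.09, so the count of members lay at the share of all genes. When transcript GC content and length were taken out, Ddit3 at -0.04 and Chac1 at -0.02 moved to 0.07 and 0.08 in that comparison, and 8 of 10 members were above 0 against 50.5% of genes. No library is shared between the comparisons. A difference of at least 1 with at least 10 TPM in a library compared was reached by 0 members in the former, against 3.83% of all genes, and by Sesn2 alone in the latter, against 3.9%. Of the members, 7 could be counted by this rule, since Trib3, Atf3 and Cebpb never reached 10 TPM. Chac1 did so through libraries that passed the minimum and was below it in the control. At a 1.5-fold threshold, Chac1 (higher) and Sesn2 (lower) were counted in the former, against 8.42% of all genes, and Atf4, Asns (both higher) and Sesn2 (lower) in the latter, against 10.7%.

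**Figure D2:**
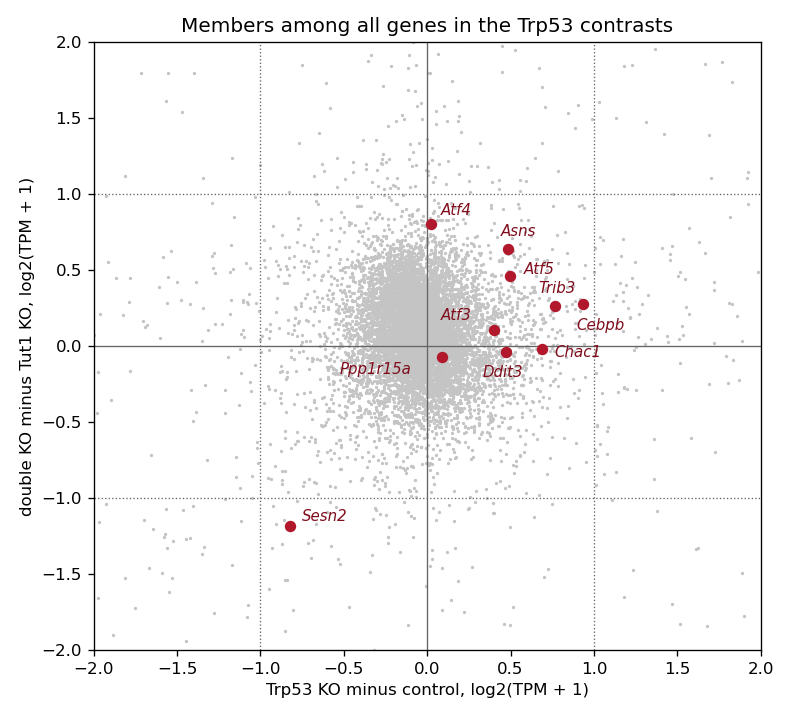
Differences of log2(TPM + 1) for Trp53 KO minus control (horizontal) and double KO minus Tut1 KO (vertical), with the members in red among 9317 genes in grey, of which 184 lie beyond the axes; dotted lines mark a difference of 1. Asns, Atf5, Trib3, Cebpb and Atf3 lie above 0 on both axes, Atf4 lies at 0.02 and 0.81, and Sesn2 lies at -0.82 and -1.19.

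Setting both libraries without Trp53 against both with it, 6 members did not overlap and were higher (Atf4, Trib3, Asns, Atf5, Atf3 and Cebpb), against 14.2% of all 9314 genes. Sesn2 did not overlap and was lower, against 13.4%. The 9314 genes have at least 10 TPM in some library, which Trib3, Atf3 and Cebpb never reached. Among the 15095 genes with at least 1 TPM in some library, 14.7% were higher and 14.4% lower without overlap. The values of Ddit3, Chac1 and Ppp1r15a overlapped. For Atf4 the gap between the Trp53 KO and the library labelled Tut1 KO was only that between 133 and 131 TPM, and it closed under quantile normalization. For the Tut1 label, Ppp1r15a did not overlap and was higher (and under quantile normalization Atf4 too), against 15.3% of all genes, and 0 members were lower throughout, against 17.1%. Among the genes with at least 1 TPM in some library, these shares were 15.0% and 17.9%.

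For the Tut1 label, the median of the members lay above 0 with Trp53 present and below 0 without it. In Tut1 KO minus control, 8 of 10 members were above 0, Atf4 among them at 0.00 when rounded, and the median was 0.15, against 39.3% of 9032 genes and a median of -0.09. With GC content and length taken out, 7 members were above 0 against 51.6% of genes, and Atf4 was at -0.04. In double KO minus Trp53 KO, only Atf4 and Ppp1r15a were above 0 (with GC content and length taken out also Cebpb, at 0.12) and the median was -0.14, against 58.7% of 8976 genes and a median of 0.05. Both comparisons had 0 members past 1, with 4.1% and 3.21% of all genes past it. At the 1.5-fold threshold 0 members were counted in Tut1 KO minus control, against 12.1% of all genes, and Atf4 (higher) and Chac1 (lower) in double KO minus Trp53 KO, against 7.89%.

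**Figure D3:**
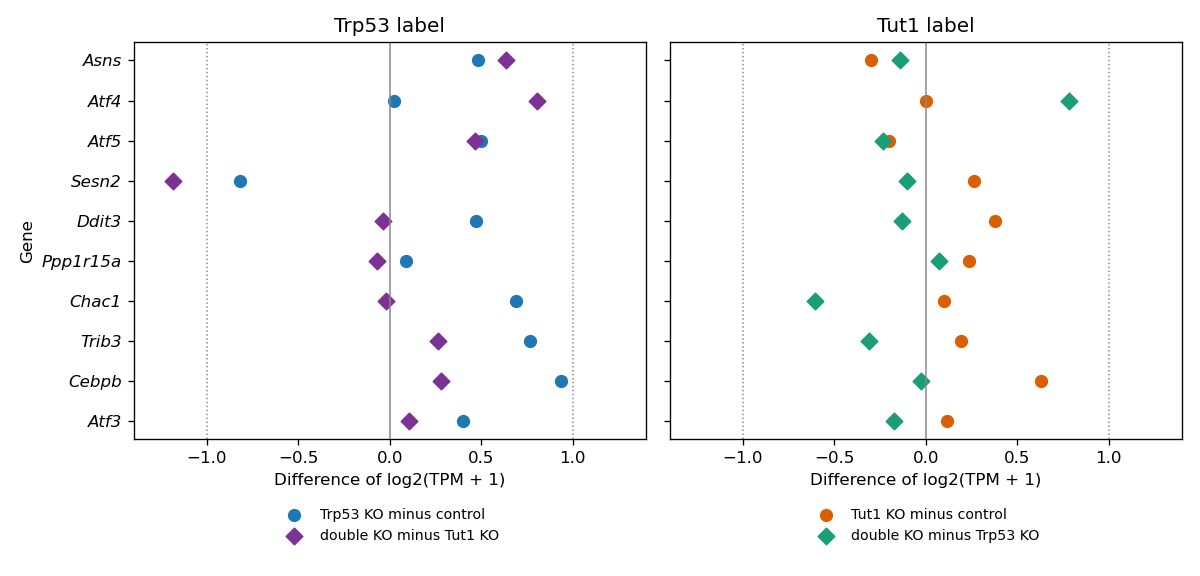
Differences of log2(TPM + 1) of the 10 members in the Trp53 comparisons (left) and the Tut1 comparisons (right); a point is a difference between 2 single libraries, without error bars, and dotted lines mark 1 and -1. In Trp53 KO minus control 9 of 10 points lie above 0, and in double KO minus Trp53 KO only Atf4 and Ppp1r15a do.

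In double KO minus control, 9 of 10 members were above 0 with a median of 0.30, against 49.8% of 9022 genes and a median near 0. No member was past 1, against 3.31% of all genes. Sesn2, at -0.92, was the member below 0. The control held the lowest value of 7 members and the Trp53 KO the highest value of 7. Because 3 of the comparisons share the control library, their positive medians are not separate observations. The members summed to 447 TPM in control cells, 442 TPM in the library labelled Tut1 KO, 529 TPM in Trp53 KO cells and 582 TPM in double KO cells. Atf4 took 25.2% of the sum in the Trp53 KO library and 39.5% in the double KO.

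Further genes of the pathway were taken from lists of known members of each step, and genes with at least 1 TPM in some library were used. The lists were chosen with earlier results of these data known, so their counts are not independent of the data. Over all 15095 such genes the median was -0.05 with 41.3% above 0 in Trp53 KO minus control, and 0.08 with 58.9% above 0 in double KO minus Tut1 KO. By the Trp53 label, 14.7% of them were higher without overlap and 14.4% lower. In these bulk cultures fewer cells of a kind and less RNA per cell cannot be told apart. Upstream of Atf4, the 18 genes for eIF2 subunits, kinases and phosphatases had medians of -0.06 and 0.20, with 6 and 12 above 0 and none past 1. The latter median became -0.003 with GC content and length taken out. Eif2ak4, the kinase that senses uncharged tRNA, had 9.47, 6.91, 11.3 and 11.2 TPM in control, library labelled Tut1 KO, Trp53 KO and double KO. The X-linked and Y-linked genes for the gamma subunit of eIF2, Eif2s3x and Eif2s3y, summed to 150 TPM in control cells, 119 TPM in the library labelled Tut1 KO, 123 TPM in Trp53 KO cells and 130 TPM in double KO cells. Among 11 factors of scanning and reinitiation, medians were -0.18 and 0.10, which became -0.05 and -0.03 under the same correction. Eif5 had 144 TPM in the control but 22.8, 32.7 and 41.8 TPM in the libraries labelled Tut1 KO, Trp53 KO and double KO. It shares exons with the small nucleolar RNA Snora28, so its value is uncertain. Eif1a was low in the library labelled Tut1 KO alone, at 14.9 TPM against 38.0 to 45.0 TPM.

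The amino acid arm of the ATF4 programme lay on the side of Asns. Of 14 enzymes of amino acid and one-carbon metabolism, 13 were above 0 in each Trp53 comparison, with medians of 0.25 and 0.50, and 11 were higher without overlap, against 14.7% of all genes. Cth, which makes cysteine, had 3.54, 2.91, 6.95 and 7.42 TPM in control, library labelled Tut1 KO, Trp53 KO and double KO. Pycr1, of proline synthesis, had 14.9, 9.60, 24.7 and 11.03 TPM, and with a difference of -1.09 was the list's gene past 1 in double KO minus Trp53 KO. The transporters gave 8 and 11 of 11 above 0 with medians of 0.21 and 0.55, and Slc7a3, a carrier of basic amino acids, had 4.79, 3.10, 7.50 and 7.71 TPM. Of 13 tRNA synthetases 12 were above 0 in each, with medians of 0.12 and 0.33. With GC content and length taken out, the medians were 0.27 and 0.44 for the enzymes, 0.32 and 0.27 for the transporters and 0.20 and 0.24 for the synthetases. Nars, which charges asparagine tRNA, had 102, 100, 128 and 146 TPM.

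In Tut1 KO minus control these lists had medians of -0.35 for enzymes, -0.45 for transporters and -0.20 for synthetases, while all genes had -0.09 and the 10 members had 0.15. With transcript GC content and length taken out, the values were -0.27, -0.23 and -0.08. Among the members, the library labelled Tut1 KO held the lowest value of Asns and Atf5 and the highest of Sesn2 and Ppp1r15a. In double KO minus Trp53 KO the medians of these lists were -0.02, -0.03 and 0.01, against 0.04 for all genes, and became -0.06, -0.09 and -0.08 under the correction.

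**Figure D4:**
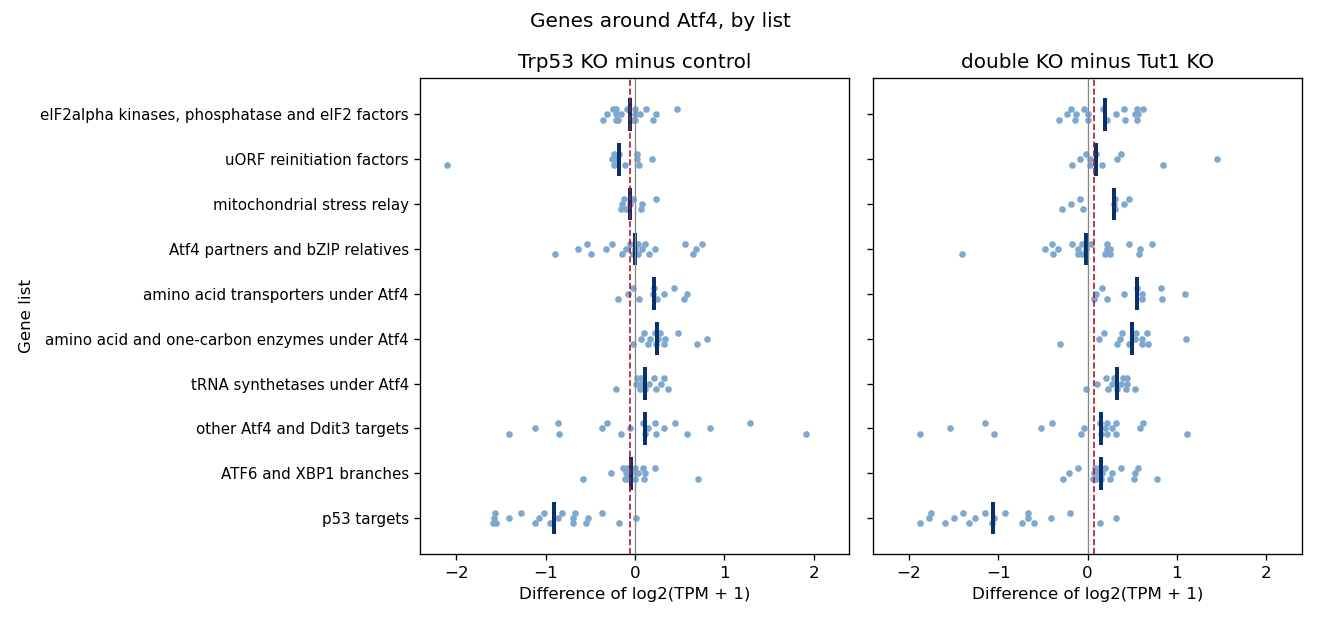
Differences of log2(TPM + 1) for genes of 10 lists in Trp53 KO minus control (left) and double KO minus Tut1 KO (right); a point is 1 gene, the dark bar is the median of its list and the dashed line is the median of all 15095 genes with at least 1 TPM. The bars of the 3 amino acid lists lie to the right of the dashed line in both panels, and that of the p53 targets lies at -0.90 and -1.06.

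Other targets of Atf4 and Ddit3 did not move together. Of 19, 11 were above 0 in each Trp53 comparison, with medians of 0.12 and 0.16, the latter of which became 0.002 with GC content and length taken out. Nupr1, a stress-induced chromatin protein, had 2.23, 4.55, 11.2 and 10.9 TPM in control, library labelled Tut1 KO, Trp53 KO and double KO, and was past 1 in both. It passed the minimum of 10 TPM only through the Trp53 KO and double KO libraries, so it could be called only as higher. Gdf15, a secreted stress signal, had 13.2, 18.4, 6.87 and 5.67 TPM and so lay lower without Trp53. Bbc3, Pmaip1 and Tnfrsf10b, cell death genes that are also in the list of p53 targets, were on the same side, and each was past 1 in at least 1 of these comparisons. Of the 20 p53 targets, 18 were lower without overlap, against 14.4% of all genes, with medians of -0.90 and -1.06. Cdkn1a, the p53-induced cell cycle inhibitor, had 477, 605, 196 and 179 TPM. Sesn2 thus lay with these genes rather than with Asns. The 19 genes of the ATF6 and XBP1 branches, the other arms of the unfolded protein response, had medians of -0.05 and 0.15 and none past 1, and the medians became 0.01 and 0.09 with GC content and length taken out. Hyou1, a chaperone of the endoplasmic reticulum, had 35.5, 27.6, 58.5 and 36.0 TPM and like Chac1 stood highest in the Trp53 KO alone.

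The genes nearest to Atf4 in pattern over the 4 libraries, by Euclidean distance of centred log2(TPM + 1) among 7179 genes with at least 10 TPM throughout, were Stx6 (distance 0.14), Arpc4 (0.15), Tmem138 (0.16), Eif3e (0.17) and Slc4a4 (0.19). Eif3e, a subunit of initiation factor eIF3, had 276, 248, 243 and 476 TPM in control, library labelled Tut1 KO, Trp53 KO and double KO. Among those nearest to Chac1 were Mir124-2hg (0.09), Fbln2 (0.10), Ube2d2a (0.11) and Tm2d2 (0.11). The likeness rests on 4 points.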

How the data were processed

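RNA of 4 libraries, 1 per group, was available as a gene table. The values were TPM computed by the authors and deposited as such. The submitters' processing notes name Trimmomatic, HISAT2, StringTie and mm10, with no versions. The labels describe a stranded short-read kit and the series text describes Nanopore reads, so the platform behind the table was not settled. TPM keeps no depth, so the counting error of each library is unknown.

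Differences of log2(TPM + 1) were taken for genes with TPM of at least 10 in a library compared, and a gene was called when its difference reached 1. As every group had a single library, no test, interval or p-value was computed. The members and gene lists were chosen with earlier results of these data known. All members were named, and in each list up to 4 genes with the largest mean difference over both Trp53 comparisons were eligible for naming, together with the 5 genes nearest to Atf4 and to Chac1. Of these, 1 gene is not reported here. Sesn1, Sesn3, Tnfrsf10b, Eif2s3x, Eif2s3y and the antisense partners were named outside this rule, after their values were seen. Positions, transcript properties and leaders came from GENCODE M21 (GRCm38), and promoter windows from RefSeq (GRCm38.p6), in which 10 of 10 members were found. Lists overlap in a few genes. Alternatives were other pseudocounts and minimums, other scalings, a 1.5-fold threshold and a GC and length correction. The work was done in Python 3.11.15 with pandas 2.3.3, numpy 2.4.6 and scipy 1.17.1, and plots were made with matplotlib 3.10.9.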

Additional observations from a re-analysis of the deposited data

Results flagged for a closer look

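The difference for the Tut1 label had opposite signs with and without Trp53, by at least 0.1 on each side, for 5 of the 10 members, against 29.9% of the 15095 genes with at least 1 TPM in some library. With 1 library per group, none of these differences between comparisons was tested. Chac1 was 0.10 for Tut1 KO minus control against -0.61 for double KO minus Trp53 KO, a gap of 0.71 on the log2 scale. Ddit3 was 0.38 and -0.13, a gap of 0.51. Trib3 was 0.19 and -0.31, a gap of 0.50. Sesn2 was 0.26 and -0.10, a gap of 0.37. Atf3 was 0.12 and -0.18, a gap of 0.29. All 5 went from above 0 to below 0, as did 9.82% of those genes, while 20.05% of them went from below 0 to above 0. With GC content and length taken out, Trib3 and Atf3 still passed 0.1 on each side, while Ddit3 (-0.06) and Sesn2 (-0.08) in double KO minus Trp53 KO and Chac1 (0.02) in Tut1 KO minus control did not. With a pseudocount of 5, Ddit3 and Trib3 still passed it and Chac1, Sesn2 and Atf3 did not. Xist was high in the library labelled Tut1 KO and in the Trp53 KO and near 0 in the other libraries, so it rose in the former comparison and fell in the latter, and its part in these gaps was not tested.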

How the results depend on the processing

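Of 107 alternative values for the members' medians and counts, 98 stayed close to those reported, meaning a median of the same sign that moved by less than 0.1 on the log2 scale or a count within 1.5 times. Of the medians, 1 turned sign, and no called value did. A minimum of 1 TPM or none could not change the medians or the counts without overlap, since all 10 members already entered them. These repeats are among the 98. With at least 10 TPM required in every library compared, the members' median became 0.28 for Trp53 KO minus control and -0.018 for double KO minus Tut1 KO, and 4 members did not overlap by the Trp53 label, since fewer members were left. Quantile normalization moved the median to 0.28 for Tut1 KO minus control and left 2 members without overlap by the Tut1 label, Atf4 and Ppp1r15a, and the cause was not tested. At a 1.5-fold threshold the members called were 2 in Trp53 KO minus control, 3 in double KO minus Tut1 KO, 2 in double KO minus Trp53 KO, 2 in double KO minus control and 0 in Tut1 KO minus control, against 8.42%, 10.7%, 7.89%, 7.76% and 12.1% of all genes. With GC content and length taken out, 8 members were higher without overlap by the Trp53 label, Ddit3 and Chac1 included, and members above 0 in double KO minus Tut1 KO went from 6 to 8 while the share of all genes went from 60.3% to 50.5%. Sesn2 stayed past 1 in that comparison in every other scaling, minimum and pseudocount, from -1.27 to -1.09. No paired analysis was possible because each group had 1 library and no test was run. For the same reason no library could be left out. The unknown depth limits Trib3, Atf3 and Cebpb most, since they stayed under 10 TPM.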

Other observations

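Partners and relatives of Atf4 outside the 10 members showed no common direction. Of 21 genes in that list (which holds Nrf1, a gene outside the bZIP family), 11 were above 0 for Trp53 KO minus control and 10 for double KO minus Tut1 KO, with medians of 0.00 and -0.01. Of all genes with at least 1 TPM in some library, 41.3% and 58.9% were above 0. Atf1, a CREB-related factor, had 13.7, 16.4, 22.2 and 25.0 TPM in control, library labelled Tut1 KO, Trp53 KO and double KO. Nfe2l1, an activator of proteasome genes, had 17.5, 33.0, 11.7 and 11.8 TPM and was lower by more than 1 in double KO minus Tut1 KO. Cebpg, which pairs with ATF4, had 18.1, 13.2, 20.4 and 22.4 TPM and so was lowest in the same library as Asns and Atf5. Of 10 family relatives of the members, 5 were above 0 for Trp53 KO minus control and 7 for double KO minus Tut1 KO, with medians of -0.08 and 0.21, which became 0.02 and 0.06 with GC content and length taken out. By the Trp53 label 2 of them (Chac2 and Cebpg) were higher without overlap and 1 was lower, against 14.7% and 14.4% of all genes. The lower gene, Ddit4l, an inhibitor of mTORC1, had 29.4, 35.1, 13.7 and 17.0 TPM and lay lower without Trp53, as Sesn2 did. The 9 genes of the mitochondrial stress relay and its chaperones had medians of -0.05 and 0.30 in the Trp53 comparisons, and 0 of them were past 1. The 0.30 became -0.02 with GC content and length taken out.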
